A study of Mus musculus with 4 samples.

Results

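The clustered protocadherins are neuronal cell-surface adhesion proteins encoded by neighbouring gene arrays called alpha, beta and gamma. Each alpha or gamma transcript joins 1 variable exon, which has its own promoter, to constant exons shared by the whole array, whereas each beta gene is a single exon with no shared constant part. Neurons choose different sets of these promoters, and the combination on the cell surface is used in self-recognition of dendrites and axons.

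Members were the rows of the array table whose gene symbols start with Pcdha, Pcdhb or Pcdhg. There were 26 such rows among 33793, of which 22 were beta, 3 gamma and 1 alpha. A row is a transcript cluster, the probes grouped under 1 transcribed locus by the design of the array, and its value is a normalized signal on a log2 scale. RNA of whole brains was hybridised to 1 array per mouse, from 2 mice without and 2 mice with the Adar2 knockout. All 4 were adult females of the 129SV strain. Per the study's methods, wild-type animals were Gria2 R/R and knockout animals were Adar2-/-, Gria2 R/R siblings, so both genotypes carried the pre-edited Gria2 allele that rescues the lethality of the knockout. ADAR2 is an enzyme that converts adenosine to inosine in RNA. A change in signal in whole brain cannot tell fewer cells of a type from less RNA per cell.

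The targeted gene, Adarb1, had signals of 10.50 and 10.45 on the wild-type arrays and 9.16 and 8.96 on the knockout arrays, lower where the labels say knockout. Median signals of the arrays were between 6.03 and 6.09. The 4 neuron marker rows (Rbfox3, Snap25, Syt1 and Tubb3) had mean signals of 11.80, 11.79, 11.78 and 11.74 on wild types 1 and 2 and knockouts 1 and 2, and none reached an unadjusted p below 0.05. Some markers of other tissue moved with genotype or with 1 array. All 6 pituitary rows were higher in the knockout mean, 3 of them (Prl, Gh and Pomc) at an unadjusted p below 0.05, against 5.95% of all rows. Prl, the hormone prolactin, was 6.55 and 4.99 in wild type and 10.11 and 9.66 in knockout. Of 5 olfactory bulb rows 3 were lower and 2 higher in the knockout mean. Cdhr1, at 7.80 and 7.87 in wild type and 7.44 and 6.66 in knockout, was the 1 of 5 at that threshold (5.95% of all rows). All 3 peripheral myelin rows were higher, 1 of them (Pmp2) at an unadjusted p below 0.05 (5.95% of all rows). Mog, 1 of 4 oligodendrocyte rows, and Alas2, 1 of 5 blood rows, were lower at that threshold. All 3 microglia rows were lower (median log2 difference -0.23), as were the 2 serotonergic rows (median -0.18). Of 4 astrocyte rows 3 were lower and 1 higher, and of 3 choroid plexus rows 1 was lower and 2 higher. None of the rows of these 4 lists was at that threshold. The part of this tissue content in the protocadherin values was not tested.

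The array covered the 3 gene clusters unequally. RefSeq (GRCm38.p6) lists 58 clustered protocadherin genes, 14 alpha, 22 beta and 22 gamma, while the table named 34 of them, 9 alpha, 22 beta and 3 gamma. Each beta gene had a row of its own on the plus strand with 12 to 25 probes (median 20), and 16 of the 22 rows had exactly the start and end of the RefSeq gene. Together they covered 256.4 kb of chromosome 18, from 37264998 to 37521419 in the coordinates of the file. The file names no genome build.

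The gamma and alpha rows did not stand for single coding genes in this way. The row named Pcdhgb6 (chromosome 18, 36930285 to 37841873, plus strand) spanned 911.6 kb and all 58 family genes, from the alpha to the gamma array. It had 190 probes, and the first entry of the file's counts of probes matched to transcripts was 31. That entry was 38 for the alpha row, which has 27 probes, so it does not count a row's probes assigned to a single gene. How many probes of the Pcdhgb6 row read Pcdhgb6 was not settled, so its signal cannot be taken as that of Pcdhgb6 alone. The Pcdhga10 row had the same coordinates but only 20 probes, and its first such entry was 19. The Pcdhga11 row (37746559 to 37768242, 21 probes) was placed on the minus strand, opposite to the genes. The alpha row (37008869 to 37020679, 27 probes) also lay on the minus strand and carried 9 symbols, Pcdha1, Pcdha2, Pcdha4, Pcdha9, Pcdha10, Pcdha11, Pcdha12, Pcdhac1 and Pcdhac2. Pcdhac1 and Pcdhac2, C-type isoforms, were thus listed only in this row, and the C-type genes Pcdhgc3, Pcdhgc4 and Pcdhgc5 had no row. Probes of a minus-strand row are not known to read the coding transcripts, so a comparison of alpha, beta and gamma rests on 1, 22 and 3 rows of different kinds. All 26 rows were in cross-hybridization class 1 of the file, as were 85.3% of all rows, and none shared its 4 values with another row. Whether related genes share probe signal was not tested.

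Every beta gene gave more signal than genes that female mice lack. The table has no detection call, so the 4 rows of Y-linked genes were used as the floor. These ranged from 3.49 to 4.40, and each of the 26 members was above 4.40 on all 4 arrays, the lowest value being 4.75. Probe sets differ in their response, so the order of the beta rows is an order of signals and not of transcript numbers. Mean beta signals ran from 4.85 to 8.31 with a median of 6.56. Pcdhb6 was the highest, at 8.46 and 8.23 in wild type and 8.43 and 8.11 in knockout. It had 15 probes, and its first count of probes matched to a transcript was 6. Pcdhb20 followed at 8.21, 8.04, 8.06 and 7.96 on wild types 1 and 2 and knockouts 1 and 2. The ranges of these highest rows over the arrays were larger than the gap between their means. Pcdhb9 was the lowest, at 4.88 and 4.75 in wild type and 4.77 and 5.01 in knockout. Pcdhb1, the first gene of the array, was next at 5.13 and 5.26 in wild type and 5.03 and 5.36 in knockout, and its genotype means were equal. On every array 13 beta rows lay above the median of all rows of the table and 4 lay below it. Over the 22 genes, which share 4 arrays and differ in probes, Spearman's rho of mean signal with position along the cluster was 0.48.

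**Figure D1:**
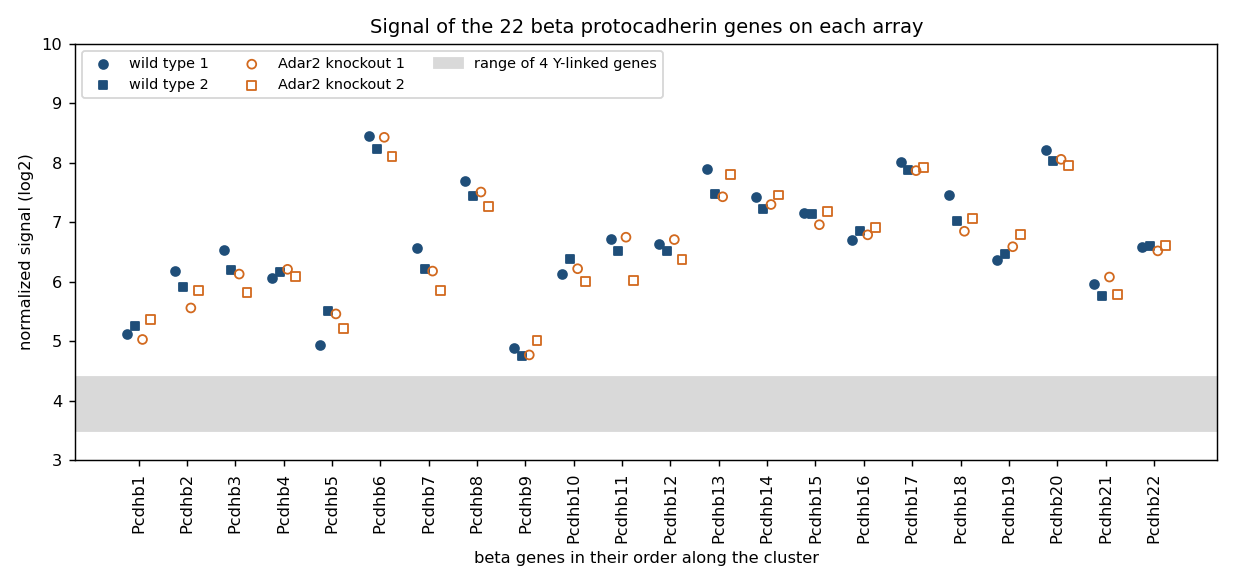
Normalized signal (log2, vertical axis) of the 22 beta genes in their order along the cluster (horizontal axis) on the 4 arrays. Filled symbols are wild type and open symbols Adar2 knockout, and the grey band is the range of 4 Y-linked genes, 3.49 to 4.40. Signals run from 4.75 to 8.46, and all points lie above the band.

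No clustered protocadherin row passed the test across all rows, and nor did any other row of the table. In limma's moderated test, 0 of 26 rows had an adjusted p below 0.05, with 0% of all rows called. The knocked-out gene Adarb1 itself had an adjusted p of 0.409 and an unadjusted p of 2.57e-05, so the adjusted count sets the members apart from no other gene. At an unadjusted p below 0.05 the count was also 0 of 26, against 5.95% of all rows. Between 0.05 and 0.1 there were 5 rows, Pcdhga10, Pcdhb3, Pcdhb19, Pcdhb2 and Pcdhb7, and 11.9% of all rows had a p below 0.1. The smallest adjusted p among the members was 0.834. With 2 arrays per genotype an exact permutation test cannot go below 0.333.

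The size of change that these arrays allow can be given for each row. The alpha and gamma rows do not stand for single genes, and family genes without a row have no interval. All 26 of the 95% limma intervals of the log2 difference contained 0. All 26 excluded a 2-fold change in either direction, and 20 excluded a 1.5-fold change. The lowest bound was -0.84, a 1.79-fold lower signal (Pcdhb11), and the highest 0.64, a 1.56-fold higher signal (Pcdhb5). Standard errors were 0.10 to 0.24. Array signals compress differences, so these bounds hold on the signal scale.

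**Figure D2:**
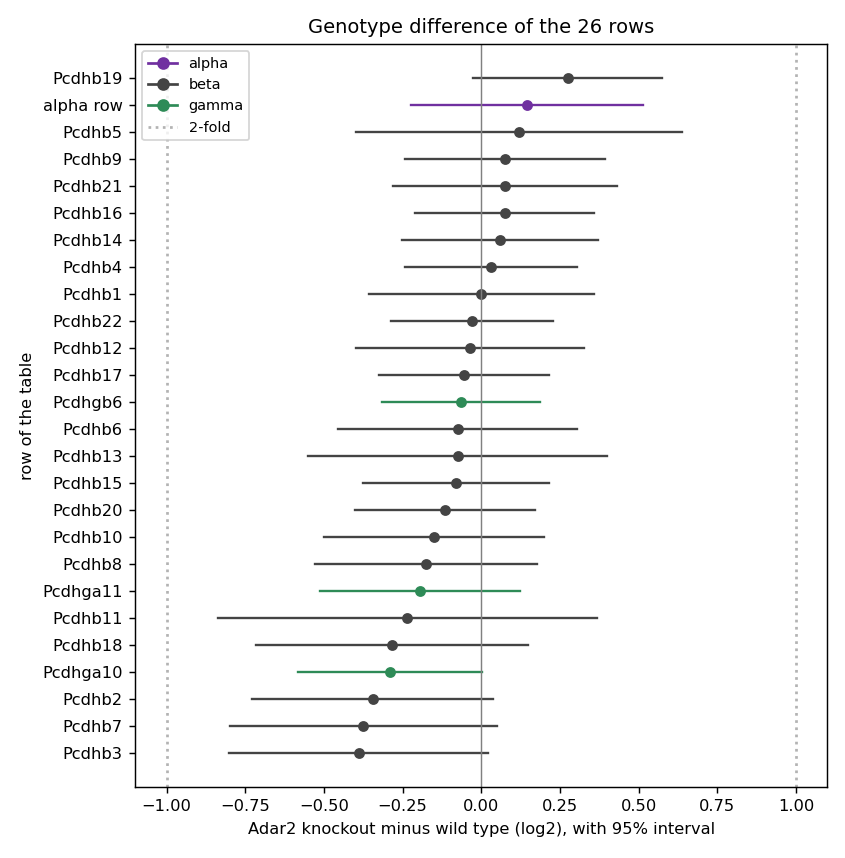
Log2 difference, Adar2 knockout minus wild type (horizontal axis), of the 26 rows in order of the difference. Points are differences of means of 2 arrays, lines are 95% limma intervals, and dotted lines mark a 2-fold change. Every interval crosses 0 and none reaches the dotted lines.

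More members had a difference below 0 than above it. The knockout mean was lower in 17 of 26 rows, higher in 8 and equal in 1, against 47.7% of all rows below 0. When each array was centred on its median, 19 of 26 were below 0, against 58.8% of all rows. The genotypes did not overlap in 7 rows, against 34.1% of all rows. The 6 with both knockout arrays below both wild-type arrays (16.5% of all rows) were Pcdhb2, Pcdhb3, Pcdhb7, Pcdhga10, Pcdhga11 and Pcdhgb6, and the 1 with both above (17.7% of all rows) was Pcdhb19. Leaving out 1 array turned the sign in 13 of the 25 rows with a difference other than 0, a count that was not set against all rows. The median log2 difference was -0.07 over the 26 members and 0.01 over all rows.

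Among the beta genes, 14 were lower in the knockout mean, 7 higher and 1 equal, with a median log2 difference of -0.07. The median was -0.04 without wild type 1, -0.10 without wild type 2 and -0.05 without either knockout array. The lowest differences were those of Pcdhb2, Pcdhb3 and Pcdhb7, which lie among the first genes of the cluster, with Pcdhb4 (0.03), Pcdhb5 (0.12) and Pcdhb6 (-0.08) between them. Pcdhb3 was 6.53 and 6.20 in wild type and 6.13 and 5.82 in knockout. Its difference was -0.39 with an SE of 0.17, an unadjusted limma p of 0.0596 and an adjusted p of 0.835. The wild-type arrays of this gene differed from each other by nearly as much as the genotypes, and so did the knockout arrays, and the difference was -0.23 without wild type 1, -0.56 without wild type 2, -0.55 without knockout 1 and -0.24 without knockout 2. Its unadjusted limma p fell below 0.05 with median centring (0.0442), with quantile normalization (0.0456) and among rows above the median signal (0.0497). It stayed above 0.05 with cyclic loess (0.0505) and without eBayes shrinkage (0.227). With the replicate number as a block it was 0.0189, and that of Pcdhb7 was 0.0212. Pcdhb7 was 6.57 and 6.22 in wild type and 6.18 and 5.86 in knockout, a difference of -0.38 with an SE of 0.17 (unadjusted limma p 0.0736), and was -0.20 without wild type 1, -0.55 without wild type 2, -0.54 without knockout 1 and -0.22 without knockout 2. Its signals were within 0.05 of those of Pcdhb3 on every array, the only 1 of 231 beta pairs to stay within 0.1, which was seen after the values were known. Both rows were in cross-hybridization class 1, and whether they share sequence was not tested. Pcdhb2 was 6.19 and 5.91 in wild type and 5.56 and 5.85 in knockout, a difference of -0.35 with an SE of 0.16 (unadjusted limma p 0.0699) that was -0.21 without wild type 1, -0.20 without knockout 1 and -0.49 without wild type 2 or knockout 2. In all 3 genes wild type 1 was the highest array.

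Pcdhb19 was the beta gene with the highest difference, at 6.37 and 6.47 in wild type and 6.59 and 6.80 in knockout. The difference was 0.28 with an SE of 0.12, an unadjusted limma p of 0.0663 and an adjusted p of 0.835. The gap of 0.21 between its knockout arrays was smaller than this difference, which was 0.17 without knockout 2 and 0.38 without knockout 1. Among rows above the median signal its unadjusted limma p was 0.0493. Pcdhb5 came next at 4.93 and 5.51 in wild type and 5.46 and 5.22 in knockout, a difference of 0.12 (unadjusted limma p 0.589) set by the low signal on wild type 1. Without that array the difference was -0.17. Pcdhb9, Pcdhb16 and Pcdhb21 shared the next value, 0.08, and in each the genotypes overlapped. Pcdhb16 was 6.71 and 6.85 in wild type and 6.79 and 6.92 in knockout. Pcdhb21 was 5.96 and 5.76 in wild type and 6.08 and 5.79 in knockout. Over the 22 genes, Spearman's rho of the log2 difference with position was 0.27 and with mean signal -0.20.

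The spread between brains of 1 genotype was compared with the genotype difference. The larger of the within-genotype gaps exceeded the genotype difference in 18 of 22 beta rows and in 75.7% of all rows. A gap between single arrays is expected to exceed a difference of 2-array means even where nothing changed, so this count says nothing particular to beta genes. The median gap between the wild-type arrays was 0.20 for beta rows and 0.13 for all rows, a ratio of 1.54. Between the knockout arrays it was 0.24 for beta rows and 0.13 for all rows, a ratio of 1.85. The median size of the genotype difference was 0.08 for beta rows and 0.10 for all rows. These ratios are a description and were not tested, and beta rows differ from the average row in probe number and signal. Over the 22 genes, Spearman's rho of the range over arrays was -0.28 with probe number and -0.22 with mean signal.

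The gaps were not the same from gene to gene. Pcdhb11 had the largest range, 0.73, with 6.72 and 6.52 in wild type and 6.75 and 6.02 in knockout. Knockout 2 stood below the other 3 arrays in this gene. Pcdhb13 was 7.90 and 7.48 in wild type and 7.43 and 7.80 in knockout, so that each genotype held a high and a low array. Pcdhb18 was 7.46 and 7.02 in wild type and 6.85 and 7.06 in knockout, with wild type 1 above the rest. Pcdhb22, the last gene of the array, had the smallest range, 0.09, with 6.58 and 6.61 in wild type and 6.52 and 6.61 in knockout. Pcdhb4, at 6.07 and 6.17 in wild type and 6.21 and 6.09 in knockout, had a range of 0.14. Pcdhb17, one of the higher rows, was 8.02 and 7.88 in wild type and 7.87 and 7.92 in knockout, a range of 0.15. Genotypes overlapped in each of these 3 rows, whose small differences all turned sign when 1 array was left out. In Pcdhb8, Pcdhb10, Pcdhb12, Pcdhb14, Pcdhb15 and Pcdhb20 they overlapped too, with log2 differences of -0.18, -0.15, -0.04, 0.06, -0.08 and -0.12. Leaving out single arrays moved each of these 6 by over 1.5 times, with Pcdhb8 at -0.05 and Pcdhb20 at -0.03 without wild type 1, Pcdhb10 at -0.02 without wild type 2, and a turned sign in the other 3. The median range was 0.35 for beta rows and 0.28 for all rows.

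**Figure D3:**
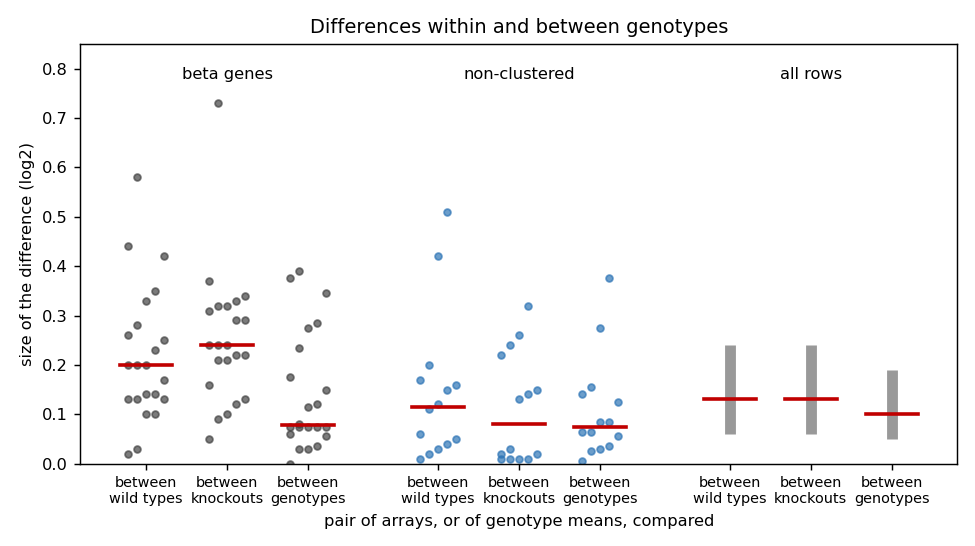
Size of the log2 difference (vertical axis) between the wild-type arrays, between the knockout arrays and between the genotype means, for the 22 beta genes, the 14 rows of non-clustered protocadherins and all rows. Points are genes, red lines are medians and grey bars run from the lower to the upper quartile. For beta genes the within-genotype medians, 0.20 and 0.24, lie above the genotype median of 0.08.

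The beta rows tended to be higher on wild type 1 than on wild type 2. Wild type 1 was above wild type 2 in 15 of 22 beta rows and 18 of 26 members, against 48.3% of all rows, and the median of wild type 1 minus wild type 2 over beta rows was 0.16. Knockout 1 was above knockout 2 in 11 of 22 beta rows and 11 of 26 members, against 51.1% of all rows. Wild type 1 held the highest value of a beta row in 9 genes, ties included, wild type 2 in 3, knockout 1 in 4 and knockout 2 in 7. The mean of the 22 beta rows was 6.72 and 6.62 on the wild-type arrays and 6.61 and 6.57 on the knockout arrays. Wild type 2 and knockout 1 thus differed by less than the wild-type arrays did. By genotype this mean was 6.67 ± 0.07 (SD, n = 2) for wild-type brains, and for knockout brains it was 6.59 ± 0.03 (SD, n = 2).

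All 3 gamma rows had both knockout arrays below both wild-type arrays, as had 16.5% of all rows, and none reached an unadjusted p below 0.05. Pcdhga10 had the highest signal of any member, at 9.99 and 9.78 in wild type and 9.59 and 9.60 in knockout. Its difference was -0.29 with an SE of 0.12, an unadjusted limma p of 0.051 and an adjusted p of 0.834, the smallest p of the 26 rows. Its interval ran from -0.58 to 0.0018, and the difference was -0.19 without wild type 1 and -0.40 without wild type 2. The unadjusted limma p fell below 0.05 with median centring (0.0378) and with an eBayes trend (0.0241). It also did among rows above the median signal (0.0364) and among rows of cross-hybridization class 1 (0.0449). It stayed above 0.05 with quantile normalization (0.0749), with cyclic loess (0.0867), without eBayes shrinkage (0.11) and with a replicate block (0.0694). Pcdhgb6, the row that spans the whole locus, was 8.22 and 8.20 in wild type and 8.13 and 8.16 in knockout. This difference of -0.07 (unadjusted limma p 0.546) was smaller than that of Pcdhga10 although both rows have the same coordinates, and the range over arrays was 0.09 for Pcdhgb6 and 0.40 for Pcdhga10. Pcdhga11, on the minus strand, was 6.36 and 6.63 in wild type and 6.30 and 6.30 in knockout, a difference of -0.20 (unadjusted limma p 0.181) that was -0.06 without wild type 2 and -0.33 without wild type 1. The gap between its wild-type arrays was larger than the genotype difference. RefSeq places the starts of 5 gamma genes (Pcdhga10, Pcdhgb7, Pcdhga11, Pcdhgb8 and Pcdhga12) inside the span of this row.

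The alpha row, the only row with alpha symbols, was higher in the knockout mean without passing a test. It was 6.81 and 6.45 in wild type and 6.72 and 6.83 in knockout, so the genotypes overlapped. The difference was 0.15 with an SE of 0.15 and an unadjusted limma p of 0.371. Without wild type 2, the low array, it was -0.04. RefSeq places the starts of Pcdha11 and Pcdha12 inside its span.

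**Figure D4:**
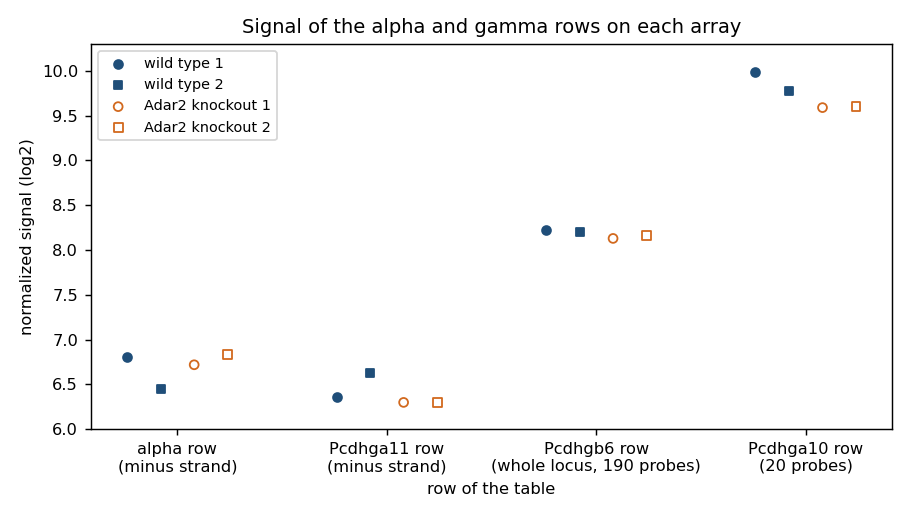
Normalized signal (log2, vertical axis) of the alpha row and the 3 gamma rows (horizontal axis) on the 4 arrays, filled symbols for wild type and open symbols for Adar2 knockout. Open symbols lie below filled ones in the 3 gamma rows and overlap them in the alpha row.

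Set against each other, the gene clusters differed in their genotype difference by 0.11 to 0.33 in size on the log2 scale, and each of these values moved by over 1.5 times when 1 wild-type array was left out. The mean gamma signal minus the mean beta signal was 1.48 and 1.59 on the wild-type arrays and 1.40 and 1.45 on the knockout arrays, a change of -0.11. The gap between its wild-type arrays equalled the change, which was -0.05 without wild type 2. Gamma minus alpha was 1.38 and 1.75 in wild type and 1.29 and 1.19 in knockout, a change of -0.33 that was -0.52 without wild type 1 and -0.14 without wild type 2. Beta minus alpha was -0.10 and 0.17 in wild type and -0.11 and -0.26 in knockout, a change of -0.22 that was -0.35 without wild type 1 and -0.09 without wild type 2. In all 3 contrasts both knockout values lay below both wild-type values, by as little as 0.01 for beta minus alpha. Both values against alpha rest on the single minus-strand alpha row, whose wild-type arrays differed by 0.36. No test was run on these 3 contrasts, and they are given as a description.

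The non-clustered protocadherins are related proteins encoded by single genes outside these arrays. Of 14 rows 11 were lower and 3 higher in the knockout mean, with a median log2 difference of -0.06, and 1 reached an unadjusted p below 0.05, against 5.95% of all rows. This was Pcdh18, at 7.24 and 7.07 in wild type and 6.65 and 6.91 in knockout (log2 difference -0.38, unadjusted limma p 0.0342). Pcdh10, a delta-protocadherin, had 2 rows, and the brighter one was 11.00 and 10.80 in wild type and 10.62 and 10.63 in knockout (log2 difference -0.28, unadjusted limma p 0.0581). The dimmer Pcdh10 row was 5.19 and 5.70 in wild type and 5.42 and 5.64 in knockout, a log2 difference of 0.09. Of 24 rows of classical and atypical cadherins 15 were lower and 8 higher, with a median of -0.03. Only Cdh12, 1 of the 24, reached an unadjusted p below 0.05 (5.95% of all rows), at 8.61 and 8.54 in wild type and 8.06 and 8.39 in knockout (log2 difference -0.35, p 0.0495). None of these rows had an adjusted p below 0.05.

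Promoter choice in the clusters depends on the insulator protein CTCF, cohesin and DNA methylation. Of 25 rows for these and other regulators, among them Rest and Cbx3, 11 were lower and 12 higher in the knockout mean. Their median was 0, and 0 reached an unadjusted p below 0.05 in limma, against 5.95% of all rows. Cbx3 had several rows, all among the higher ones, with log2 differences of 0.005, 0.08, 0.065 and 0.02. Ctcf itself was 8.31 and 8.06 in wild type and 7.96 and 7.95 in knockout, the largest difference of the list at -0.23 (unadjusted limma p 0.117). Nipbl, which loads cohesin on DNA, was 7.98 and 8.07 in wild type and 8.11 and 8.39 in knockout (log2 difference 0.23, unadjusted limma p 0.143).

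Inside the cell, protocadherins bind the WAVE actin regulators and the kinases FAK and PYK2. Of 15 rows for such intracellular partners 11 were lower and 4 higher, with a median of -0.12. Cyfip2, a subunit of the WAVE complex, was the 1 of 15 rows at an unadjusted p below 0.05 (5.95% of all rows), at 11.87 and 11.84 in wild type and 11.51 and 11.56 in knockout (log2 difference -0.32, p 0.0213, adjusted limma p 0.834). Ptk2, which encodes FAK, had 2 rows, 1 at 9.20 and 9.06 in wild type and 9.23 and 9.23 in knockout (log2 difference 0.10) and a dimmer one with a log2 difference of -0.12. Ptk2b, which encodes PYK2, was 10.65 and 10.58 in wild type and 10.44 and 10.32 in knockout (log2 difference -0.24, unadjusted limma p 0.0756). Of 3 surface partners (Nlgn1, Nlgn2 and Robo1) 1 was lower and 2 higher, and the largest difference was 0.08 in size.

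Other genes around the locus gave a median log2 difference of -0.03. Within 1 Mb of the clusters, 45 other rows were measured, 2 of them (Pcdh1 and Pcdh12) also among the non-clustered protocadherins, of which 30 were lower and 14 higher in the knockout mean. The 1 row at an unadjusted p below 0.05 (5.95% of all rows) was Gnpda1, an enzyme of glucosamine metabolism, at 8.53 and 8.81 in wild type and 8.29 and 8.20 in knockout (log2 difference -0.43, p 0.0195). Taf7, which lies between the beta and gamma arrays and encodes a subunit of the general transcription factor TFIID, was 6.14 and 6.15 in wild type and 6.11 and 6.29 in knockout. Slc25a2, in the same interval, was 5.16 and 5.35 in wild type and 5.18 and 5.18 in knockout. In both of these genes the genotypes overlapped.

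**Figure D5:**
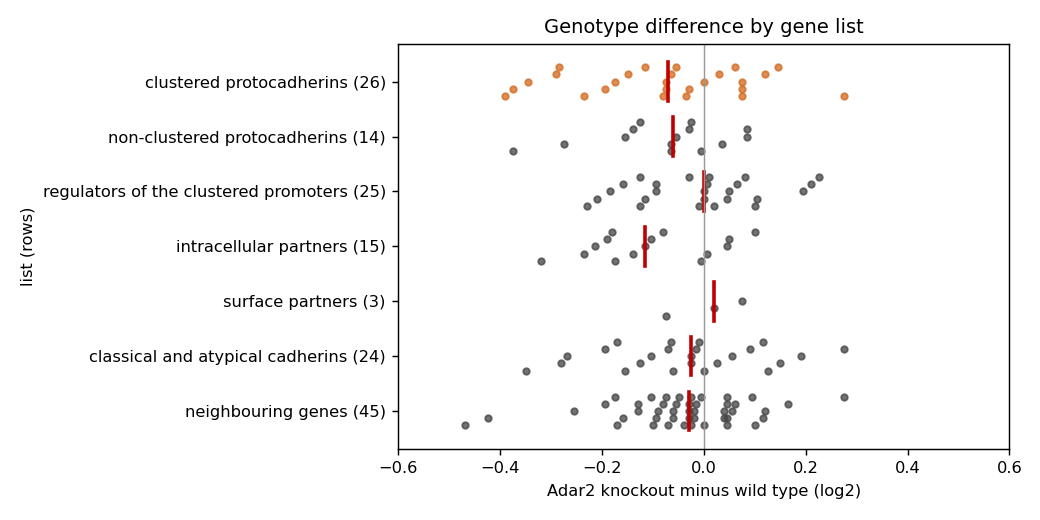
Log2 difference, Adar2 knockout minus wild type (horizontal axis), for the 26 clustered protocadherin rows and 6 other gene lists (vertical axis, number of rows in brackets). Points are rows and red lines are medians, which lie between -0.12 and 0.02.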

How the data were processed

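The authors deposited 1 table of log2 signals, given to 2 decimals, for 33793 transcript clusters on 4 Affymetrix whole-transcript arrays. The submitters' processing notes name Affymetrix Expression Console and RMA, without versions. RMA corrects background, quantile-normalizes and summarises probes, so a signal is relative within its row and small changes are compressed. The table's other columns that were read, also as deposited by the authors, included the number of probes, the counts matched to transcripts and the cross-hybridization class. Columns with the authors' own ratios and p-values were not used.

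All rows were tested for genotype, the only term, by two-sided moderated statistics of limma 3.58.1 (R 4.3.3, functions lmFit and eBayes) with Benjamini-Hochberg adjustment over 33793 rows and no filter. The prior SD was 0.125 with 3.79 degrees of freedom. The step was tested on simulated data. Python 3.11.15, pandas 2.3.3 and matplotlib 3.10.9 were used for counts and plots. Arrays have no read depth, and their number, 2 per genotype, limits the precision. The labels do not say beyond the replicate number how the brains relate, so p-values measure the spread between these arrays.

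Members and lists were chosen with earlier results of these data known. Named with full values were C-type genes, members with an unadjusted p below 0.05, and in each cluster the 3 largest rises and falls and the 2 highest and lowest signals. Other beta genes were named for their range, and rows beyond these rules after their values were seen. Alternatives were other normalizations, filters, eBayes options, a replicate block and leaving out each array. A planned comparison of promoter and protein sequences was not analysed here. Coordinates are those of the file, and RefSeq genes are of GRCm38.p6.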

Additional observations from a re-analysis of the deposited data

How the results depend on the processing

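The count of members with an adjusted p below 0.05 was 0 under all 15 alternatives. At an unadjusted p below 0.05 the count of 0 became 2 of 26 with median centring (6.01% of all rows called). It became 1 with quantile normalization (5.44%) and 1 with an eBayes trend (5.83%). When only rows above the median signal were tested it was 3 of 21 (5.85%), and among rows of cross-hybridization class 1 it was 1 (6.1%). The rows that gained these calls were Pcdhga10, Pcdhb3 and Pcdhb19. A fit without 1 array leaves a genotype with no spread of its own, so those counts are not given. Same-numbered arrays did not deviate together (r = 0.0516). With the replicate number as a block the count was 2 (5.01% of all rows), Pcdhb3 (p 0.0189) and Pcdhb7 (p 0.0212). Members whose genotypes do not overlap numbered 6 to 9 of 26 under other normalizations, against 34.1% of all rows with the deposited values. The share of all rows under those normalizations is not given. The gamma median of -0.20 was -0.24 with median centring, -0.22 with quantile normalization and -0.21 with cyclic loess. It was -0.18 over plus-strand rows and -0.24 without the Pcdhgb6 row, both chosen after seeing the data, and -0.20 to -0.08 when single arrays were left out. In a count not set against all rows, leaving out 1 array turned the sign in 13 of 25 members. These were Pcdhb21 (-0.07 to 0.22), Pcdhb5 (-0.17 to 0.41), Pcdhb6 (-0.24 to 0.09), Pcdhb9 (-0.05 to 0.20), the alpha row (-0.04 to 0.33), Pcdhb4 (-0.03 to 0.09), Pcdhb11 (-0.60 to 0.13), Pcdhb12 (-0.21 to 0.14), Pcdhb13 (-0.29 to 0.14), Pcdhb14 (-0.04 to 0.16), Pcdhb15 (-0.19 to 0.03), Pcdhb17 (-0.13 to 0.02) and Pcdhb22 (-0.08 to 0.02), with the range over the arrays left out in brackets. The beta median stayed between -0.11 and -0.04. The cause was not tested.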
